A study of Mus musculus with 36 samples.

Results

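The genes described here are 9 of the 52636 listed in each of the 36 libraries: the interferon regulatory factors Irf1, Irf2, Irf3, Irf5, Irf7, Irf8 and Irf9, the transcription factor Stat2, and Socs1, an inhibitor of cytokine signaling. They were chosen by name, with earlier results of these data known. Each symbol matched 1 Ensembl gene, and all 9 passed the filter on low counts in every fit. The libraries came from whole intestines of E18.5 mouse embryos and from mouse embryonic fibroblasts (MEFs), with 3 libraries per genotype.

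The D387A set of 18 intestines held 6 genotypes. They were Mlkl-/- controls, Casp8 D387A, Casp8 D387A Cflar-/- Mlkl-/-, and the last genotype with Casp1-/- added, with Casp1-/- Ifnar1-/- added, or with Casp1-/- Fadd-/- added. The C362A set of 12 intestines held Mlkl-/- controls, Casp8 C362A Mlkl-/-, Casp8 C362A Mlkl-/- Casp1-/- and Casp8 C362A Cflar-/- Mlkl-/-. The 6 MEF libraries were Mlkl-/- or Casp8 D387A Cflar-/- Mlkl-/-, and no sample was treated. Casp8 D387A is caspase-8 that is impaired in cleaving itself, and Casp8 C362A is caspase-8 without its catalytic cysteine. Cflar encodes cFLIP, the partner of caspase-8, and Mlkl encodes the effector of necroptosis. Casp1 encodes the protease of inflammasomes, Fadd the adaptor that recruits caspase-8, and Ifnar1 a chain of the type I interferon receptor. Every group except Casp8 D387A lacked Mlkl, so the Casp8 D387A intestines differed from their controls in both Casp8 and Mlkl. Each Cflar deletion in the intestines was a single engineered allele, a different one in each set, and the Fadd-/- embryos also lacked Casp1. All strains were on a C57BL/6N background.

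In interferon signaling, type I and type III interferons act through receptor-bound JAK kinases to bring STAT2 and IRF9 together in ISGF3, a complex that binds interferon-stimulated response elements (ISRE). Interferon gamma instead acts through gamma-activated sites (GAS), and IRF1 is among its targets. IRF3 is made constitutively and is switched on by phosphorylation downstream of nucleic acid sensors, IRF7 amplifies the response because its own gene is interferon-induced, and SOCS1 binds JAK kinases and closes the loop. IRF8 and IRF5 are best known from myeloid cells, and IRF2 shares binding sites with IRF1, which it can antagonise.

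The promoters of 4 of these genes are shown because they carry letters of such elements, in the 250 bases before a RefSeq start site. The sequences are from RefSeq on GRCm38.p6, read 5′ to 3′ on the strand of the gene. Capitals mark matches to the letters given next for the 2 elements, searched on both strands. The ISRE letters are a pair of GAAA copies with any 2 bases between them, and the GAS letters are TTC and GAA with any 3 bases between them. The Stat2 window is chr10:128270248-128270497 on the plus strand, with 1 ISRE match, and the Socs1 window is chr16:10785537-10785786 on the minus strand, with 2 overlapping ISRE matches. The Irf1 window is chr11:53769764-53770013 on the plus strand, with 1 GAS match, and the Irf8 window is chr8:120736108-120736357 on the plus strand, with 2 GAS matches.
Stat2: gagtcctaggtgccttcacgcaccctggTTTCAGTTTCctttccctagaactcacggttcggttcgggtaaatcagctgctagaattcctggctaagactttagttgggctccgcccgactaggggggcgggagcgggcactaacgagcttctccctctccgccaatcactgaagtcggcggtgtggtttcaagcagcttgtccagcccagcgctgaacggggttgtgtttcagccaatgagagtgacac
Socs1: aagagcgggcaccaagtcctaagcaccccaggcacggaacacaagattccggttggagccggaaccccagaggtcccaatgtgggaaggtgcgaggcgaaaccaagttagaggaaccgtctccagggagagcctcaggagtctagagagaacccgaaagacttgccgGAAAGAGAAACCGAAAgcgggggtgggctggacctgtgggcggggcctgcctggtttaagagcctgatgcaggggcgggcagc
Irf1: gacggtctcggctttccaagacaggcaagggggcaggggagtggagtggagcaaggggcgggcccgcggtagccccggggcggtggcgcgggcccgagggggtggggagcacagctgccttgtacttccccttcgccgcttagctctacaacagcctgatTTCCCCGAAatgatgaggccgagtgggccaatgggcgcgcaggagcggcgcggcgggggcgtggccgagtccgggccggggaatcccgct
Irf8: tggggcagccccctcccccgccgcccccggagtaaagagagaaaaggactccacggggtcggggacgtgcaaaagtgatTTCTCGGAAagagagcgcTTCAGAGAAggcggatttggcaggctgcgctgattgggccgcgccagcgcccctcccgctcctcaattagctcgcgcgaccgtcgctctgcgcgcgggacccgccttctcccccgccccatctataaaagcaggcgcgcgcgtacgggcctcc

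Of the 32851 RefSeq promoters of this length, 2.98% held the ISRE letters and 7.02% the GAS letters. All 9 genes had a promoter entry, 12 windows in all, and 3 genes held an ISRE match (Irf2, Stat2 and Socs1) while 3 held a GAS match (Irf1, Irf2 and Irf8). In Socs1 the paired ISRE ran from base 83 to base 68 before the start. The GAS match of Irf1 lay between bases 90 and 82 before its start, and those of Irf8 between bases 171 and 145. The windows of Irf3, Irf5, Irf7 and Irf9 held neither set of letters, which says nothing of elements outside them. Windows that overlap an annotated exon, such as that of Irf2, are not printed. The genes themselves lie on GRCm38 at chr11:53770014-53778374 (Irf1), chr8:46739732-46847458 (Irf2), chr7:44997648-45002848 (Irf3), chr6:29526625-29541871 (Irf5), chr7:141262706-141266481 (Irf7), chr8:120736358-120756694 (Irf8), chr14:55603571-55610030 (Irf9), chr10:128270559-128292849 (Stat2) and chr16:10782240-10785536 (Socs1).

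Reads on genes ran from 17943524 to 27721024 per library in the D387A set, from 21757868 to 31052238 in the C362A set and from 20927014 to 32307629 in the MEFs. Transcripts of Casp1, Fadd and Ifnar1 followed the labels. Casp1 was at 0.212 CPM (a count relative to the scaled library size) or less in all 12 libraries labelled Casp1-/- and at 42.5 CPM or more in the other intestines, and Fadd was at 1.01 CPM or less only in the 3 Fadd-/- libraries. Ifnar1 was at 33.2 to 37.9 CPM in the Ifnar1-/- libraries against 76.1 CPM or more in all others, so part of its transcript was still counted. Cflar was lower, though still counted, under the Cflar-/- label in the C362A set and in MEFs, where libraries with and without the label did not overlap. Its group mean was 42.6 CPM in Casp8 C362A Cflar-/- Mlkl-/- intestines, against 55.5 to 67.9 CPM for the remaining C362A-set groups. In MEFs the means were 57.5 CPM with the Cflar deletion and 87.6 CPM without it. Within the D387A set, counts of Cflar and Mlkl did not follow the labels. Group means of Cflar were 36.4 to 52.1 CPM in the Cflar-/- intestines of the D387A set against 47.8 CPM in controls, and those of Mlkl were 19.9 to 59.4 CPM in its 4 Cflar-/- Mlkl-/- groups and 5.004 CPM in the Mlkl-/- controls against 12.8 CPM in Casp8 D387A, the group with intact Mlkl. Of the tissue markers, intestinal epithelial genes summed to 6026 to 10140 CPM in the intestines and to 41.3 to 69.1 CPM in the MEFs, and fibroblast genes to 28930 to 34100 CPM in the MEFs. One library stood apart. The third Casp8 D387A Cflar-/- Mlkl-/- Casp1-/- embryo had far higher levels of most interferon-related members than the other two, and results that it moves are given with and without it. Levels are given as RPKM, reads per kilobase of gene width relative to a library size scaled by TMM (trimmed mean of M-values). The scaling was done within each set, so levels of different sets are not on one scale.

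Among the 9 members, Irf7 and Socs1 had the widest spread of genotype means in both intestinal sets, followed by Stat2 in the D387A set and by Irf5 in the C362A set, and Irf2 and Irf3 had the narrowest. A gene was called where the log2 fold change passed 1 or -1 with an adjusted p below 0.05 in edgeR's quasi-likelihood test, adjusted over all genes of the fit, and "rose" and "fell" are used below for called genes. In Casp8 D387A intestines no member was called in either direction, and 0.00545% of all genes were called (1 gene, with 921 of 18360 at an unadjusted p below 0.05). In Casp8 D387A Cflar-/- Mlkl-/- intestines 3 of 9 members rose, Irf5, Irf7 and Socs1, where 9.40% of all genes rose. With Casp1-/- added, 2 of 9 rose, Irf7 and Socs1, against 2.16% of all genes, and without the third embryo none of the 9 was called, where 1.32% of all genes rose and 1.87% fell. With Casp1-/- Ifnar1-/- added 5 of 9 rose against 6.76% of all genes, and with Casp1-/- Fadd-/- added 5 of 9 rose against 2.81%. In the C362A set 7 of 9 rose in Casp8 C362A Mlkl-/- intestines, where 10.4% of all genes rose, 7 of 9 in Casp8 C362A Mlkl-/- Casp1-/- intestines against 6.79%, and 3 of 9 in Casp8 C362A Cflar-/- Mlkl-/- intestines against 13.4%. No member fell in any of these 8 comparisons, in which 0.00545%, 12.8%, 2.18%, 5.64%, 0.975%, 7.55%, 3.73% and 11.2% of all genes fell, in the order given. The comparisons within a set share their 3 control libraries. The median log2 difference of the 9 members ran from 0.17 in Casp8 D387A to 1.66 in Casp8 C362A Mlkl-/-, and that of all genes stayed between -0.02 and 0.03.

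**Figure D1:**
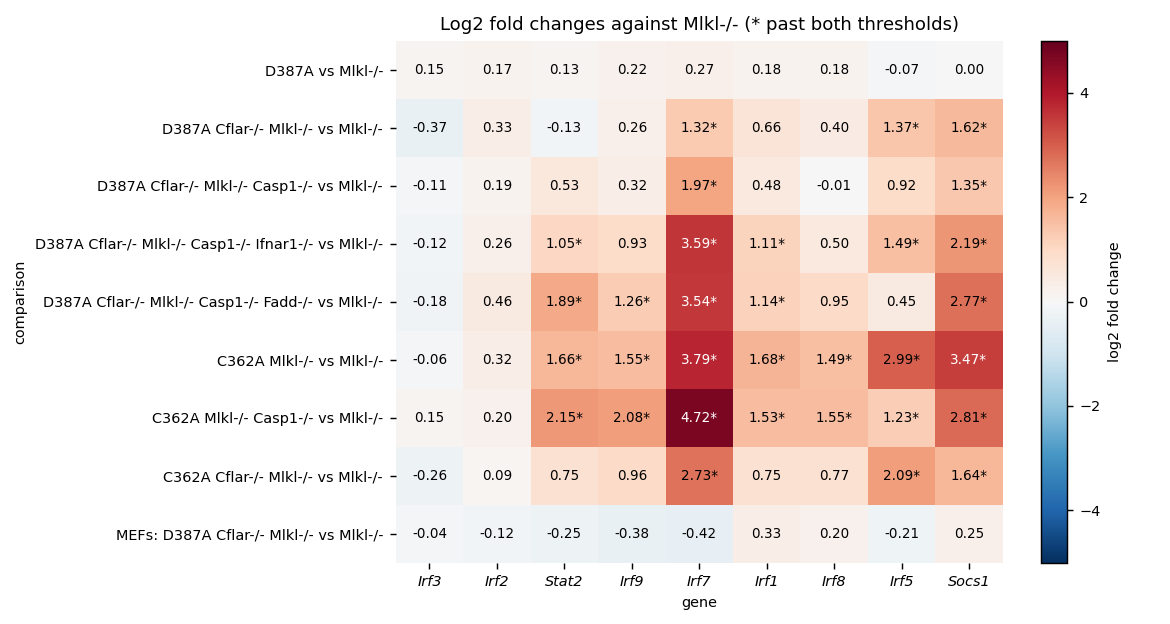
Log2 fold change of the 9 genes (columns) in each genotype against the Mlkl-/- samples of its own set (rows), with the colour scale from -5 to 5 and an asterisk where both thresholds were passed. Irf7 holds the largest values of the map, 3.79 in Casp8 C362A Mlkl-/- and 4.72 with Casp1-/- added, and Irf3 and Irf2 lie between -0.37 and 0.46 throughout.

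Irf3, the factor switched on by phosphorylation, and Irf2, which can antagonise Irf1, varied least between genotypes. Irf3 ranged from 24.1 to 37.5 RPKM over the 18 intestines of the D387A set and from 28.4 to 42.7 RPKM over the 12 of the C362A set. Irf2 ranged from 14.4 to 22.8 RPKM and from 14.0 to 20.1 RPKM. Neither was called in any comparison. Irf3 was lower in Casp8 D387A Cflar-/- Mlkl-/- intestines, by -0.37 ± 0.08 (log2 difference ± SE, adjusted p = 0.00046), with 24.3, 24.1 and 25.8 RPKM against 32.8, 33.1 and 29.8 RPKM in the controls and no overlap. In Casp8 C362A Cflar-/- Mlkl-/- intestines its difference was -0.26 ± 0.10 (adjusted p = 0.042). Irf2 was highest in the Casp1-/- Fadd-/- intestines of the D387A set, where its difference from controls was 0.46 ± 0.10 (adjusted p = 0.0036). Irf3 shares 88 exon bases with Bcl2l12 on the opposite strand.

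Irf7, the interferon-induced amplifier, had the widest range of the 9. In Mlkl-/- controls of the D387A set it was at 39.0, 65.1 and 36.9 RPKM, and in Casp8 D387A intestines at 42.3, 89.0 and 38.6 RPKM. In both groups the second embryo was the high one, and the groups overlapped. Casp8 D387A Cflar-/- Mlkl-/- intestines had 130, 94.0 and 128 RPKM, all above the controls (log2 difference 1.32 ± 0.54, adjusted p = 0.044). That call was lost in DESeq2 (adjusted p = 0.059) and when the first or the third embryo of either group was left out, with adjusted p of 0.090 to 0.13. With Casp1-/- added, the 3 embryos had 54.6, 75.9 and 422 RPKM. The first was within the range of the controls, the second just above it and the third above every Cflar-/- Mlkl-/- embryo with intact Casp1. The difference from controls was 1.97 ± 0.55 (adjusted p = 0.017) with all 3 embryos and 0.47 (adjusted p = 0.32) without the third, and with all 3 it missed the threshold in limma-voom (adjusted p = 0.060) and in a fit of those 2 groups alone (adjusted p = 0.12). Leaving out the first or the third control gave adjusted p of 0.073 and 0.066.

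The highest Irf7 levels of the D387A set were in embryos that lacked Ifnar1 or Fadd in addition to Casp1. Casp1-/- Ifnar1-/- intestines had 425, 607 and 661 RPKM and Casp1-/- Fadd-/- intestines 595, 569 and 476 RPKM, all above every other embryo of the set. Against controls these were differences of 3.59 ± 0.59 (adjusted p = 9.7e-05) and 3.54 ± 0.59 (adjusted p = 0.00045). Against the Casp1-/- embryos with intact Ifnar1, the loss of Ifnar1 went with a difference of 1.62 ± 0.54 (adjusted p = 0.032), the 1 member called there while 3.28% of all genes rose, which became 3.11 (adjusted p = 2.3e-06) without the third Casp1-/- embryo. The call was lost without the first or the second Casp1-/- embryo (adjusted p = 0.11 and 0.13), without the second or the third Casp1-/- Ifnar1-/- embryo (adjusted p = 0.080 and 0.089) and in the fit of those 2 groups alone (adjusted p = 0.15). For the loss of Ifnar1, Irf1 (0.62 ± 0.16), Irf8 (0.50 ± 0.14), Irf9 (0.60 ± 0.19) and Socs1 (0.84 ± 0.28) were higher with adjusted p of 0.034 or less but under the fold threshold, and Stat2 (0.52 ± 0.23), Irf5 (0.57 ± 0.22), Irf2 (0.07 ± 0.10) and Irf3 (-0.01 ± 0.08) had adjusted p of 0.056 or more. Without the third Casp1-/- embryo Socs1 (1.33) and Stat2 (1.04) were called as well, where 6.06% of all genes rose. The loss of Fadd went with a difference in Irf7 of 1.57 ± 0.54 (adjusted p = 0.054), not called, and with 3.07 (adjusted p = 4.2e-06) without that embryo. This Irf7 difference was called in limma-voom (2.17, adjusted p = 0.0095) and with the replicate number as a block (1.77, adjusted p = 0.043). The means of these 2 groups, 564 ± 123.4 and 547 ± 62.4 RPKM (SD, n = 3), lay within each other's range.

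In the C362A set Irf7 was at 21.8, 33.7 and 47.9 RPKM in controls and at 449, 496 and 486 RPKM in Casp8 C362A Mlkl-/- intestines. Casp8 C362A Mlkl-/- Casp1-/- intestines had 923, 989 and 810 RPKM, and Casp8 C362A Cflar-/- Mlkl-/- intestines 252, 203 and 232 RPKM. None of these 4 groups overlapped another. The differences from controls were 3.79 ± 0.25, 4.72 ± 0.26 and 2.73 ± 0.24 on the log2 scale, which correspond to 13.8-fold, 26.3-fold and 6.64-fold. In the highest library Irf7 was counted with 56912 reads.

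**Figure D2:**
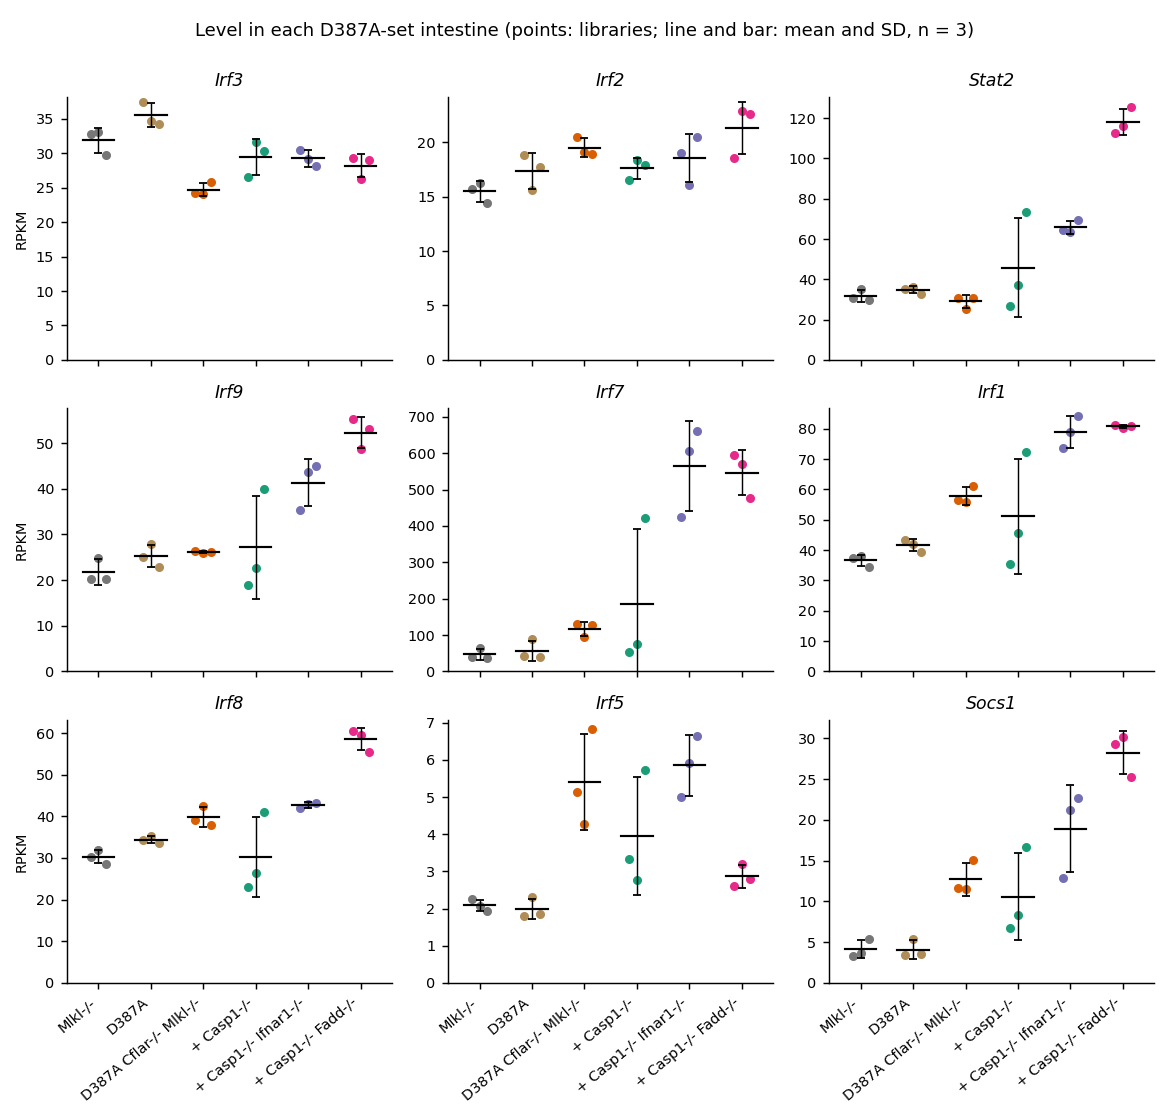
RPKM of each gene (vertical axes, linear from 0) in the 3 libraries (points) of each D387A-set genotype, with the mean as a line and the SD as a bar, of which the lower end in Irf7 with Casp1-/- runs below the axis. The third Casp1-/- embryo is the high point of its group in Irf7 (422 RPKM), Stat2, Irf9, Irf1, Irf8, Irf5 and Socs1.

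STAT2 and IRF9, subunits of ISGF3, were raised in fewer genotypes than Irf7. Stat2 was at 30.6, 35.1 and 29.5 RPKM in D387A-set controls and at 30.9, 25.1 and 30.9 RPKM in Casp8 D387A Cflar-/- Mlkl-/- intestines, with overlapping groups and a difference of -0.13 ± 0.23 (adjusted p = 0.65). With Casp1-/- added the embryos had 26.6, 37.3 and 73.5 RPKM, again with the third apart. Casp1-/- Ifnar1-/- intestines had 64.4, 63.4 and 69.3 RPKM and Casp1-/- Fadd-/- intestines 113, 116 and 125 RPKM, all above the controls. Stat2 rose by 1.05 ± 0.23 in the first of these (adjusted p = 0.0014) and by 1.89 ± 0.24 in the second (adjusted p = 3.6e-05). The first lies at the fold threshold and was 0.998 when the third control was left out. Against the Casp1-/- embryos with intact Fadd, Stat2 rose by 1.37 ± 0.23 (adjusted p = 0.00078), and by 1.88 without the third of them. In a fit of those 2 groups alone this Stat2 call was lost (adjusted p = 0.053). Stat2 and Socs1 were the 2 members called for the loss of Fadd, where 2.56% of all genes rose. Without the third Casp1-/- embryo 5 were, where 3.96% of all genes rose, and limma-voom with all embryos also called 5. Irf8 (0.96 ± 0.14, adjusted p = 0.00023) and Irf9 (0.94 ± 0.19, adjusted p = 0.0026) then passed the fold threshold, at 1.24 and 1.33 without that embryo. Irf1 differed by 0.66 ± 0.16 (adjusted p = 0.010) and by 0.99 without it, Irf5 by -0.46 ± 0.22 (adjusted p = 0.17) and by -0.09, and Irf2 and Irf3 by 0.28 and -0.07 with all embryos.

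Irf9 in the D387A set was at 20.2, 24.9 and 20.2 RPKM in controls and at 26.4, 25.8 and 26.2 RPKM in Casp8 D387A Cflar-/- Mlkl-/- intestines, a difference of 0.26 ± 0.19 (adjusted p = 0.25). It rose in Casp1-/- Fadd-/- intestines, which had 55.2, 48.7 and 53.0 RPKM (1.26 ± 0.19, adjusted p = 0.00021). Casp1-/- Ifnar1-/- intestines had 35.5, 43.6 and 44.99 RPKM, a difference of 0.93 ± 0.19 (adjusted p = 0.00077), short of the fold threshold that it passed without the first of them (1.02) or without the second control (1.03). The Casp1-/- embryos with intact Ifnar1 and Fadd had 18.9, 22.8 and 40.1 RPKM, and only the third lay above the controls. Both genes rose in each of the 2 C362A-set genotypes with intact Cflar. Stat2 went from 32.7, 38.6 and 44.5 RPKM in controls to 113, 128 and 125 RPKM in Casp8 C362A Mlkl-/- (1.66 ± 0.14) and to 170, 184 and 160 RPKM with Casp1-/- added (2.15 ± 0.14). Irf9 went from 15.9, 21.5 and 26.4 RPKM to 55.3, 68.5 and 63.1 RPKM (1.55 ± 0.16) and to 95.4, 93.4 and 80.1 RPKM (2.08 ± 0.16). Casp8 C362A Cflar-/- Mlkl-/- intestines lay between, with 65.6, 61.7 and 66.7 RPKM of Stat2 and 41.7, 41.8 and 40.7 RPKM of Irf9, and their differences from controls, 0.75 ± 0.14 and 0.96 ± 0.16, were under the fold threshold with adjusted p of 0.00038 and 0.00014. Without the third control that of Irf9 was 1.17 and called. Irf9 shares exon bases with Rnf31 on the same strand, so some reads of the pair may have been counted for either gene, and Rnf31 differed in the same direction (1.46 ± 0.11 in Casp8 C362A Mlkl-/- and 1.91 ± 0.11 with Casp1-/- added).

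Irf1, a target of interferon gamma signaling that also drives antigen-presentation genes, was well expressed in all intestines. In D387A-set controls it was at 37.4, 37.9 and 34.5 RPKM and in Casp8 D387A Cflar-/- Mlkl-/- intestines at 56.5, 55.8 and 61.2 RPKM, which is a difference of 0.66 ± 0.16 (adjusted p = 0.0022) with no overlap but below the fold threshold. Casp1-/- embryos had 35.5, 45.7 and 72.2 RPKM, of which the first lay within the range of the controls. Casp1-/- Ifnar1-/- intestines had 73.6, 78.9 and 84.1 RPKM (1.11 ± 0.16, adjusted p = 4.0e-05) and Casp1-/- Fadd-/- intestines 81.2, 80.2 and 81.0 RPKM (1.14 ± 0.16, adjusted p = 0.00014), so Irf1 rose in both. In the C362A set it rose from 35.3, 44.7 and 49.2 RPKM in controls to 141, 133 and 141 RPKM in Casp8 C362A Mlkl-/- (1.68 ± 0.15, adjusted p = 5.2e-07). With Casp1-/- added it was at 126, 137 and 112 RPKM, overlapping the group with intact Casp1. Casp8 C362A Cflar-/- Mlkl-/- intestines had 80.6, 62.3 and 74.5 RPKM, above the controls and below the other 2 mutants.

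Irf8 and Irf5, the factors known from myeloid cells, did not follow the same order of genotypes. Irf8 in the D387A set was at 30.3, 31.8 and 28.7 RPKM in controls, 39.1, 42.4 and 37.9 RPKM in Casp8 D387A Cflar-/- Mlkl-/- intestines and 60.5, 59.5 and 55.5 RPKM in Casp1-/- Fadd-/- intestines. The last were the highest of the set, with a difference of 0.95 ± 0.14 from controls (adjusted p = 0.00017) that stayed just under the fold threshold. Casp1-/- embryos had 23.0, 26.4 and 41.1 RPKM of Irf8, the first and the second below every control and the third above them, and Casp1-/- Ifnar1-/- intestines 41.9, 43.0 and 43.1 RPKM. Without the third Casp1-/- embryo, Irf8 in Casp1-/- embryos was lower than in controls, by -0.29 (adjusted p = 0.015), and with it the difference was -0.01 (adjusted p = 0.99). In C362A-set intestines Irf8 rose from 25.5, 28.9 and 24.9 RPKM to 75.9, 69.2 and 77.5 RPKM in Casp8 C362A Mlkl-/- intestines (1.49 ± 0.12) and to 77.6, 81.6 and 72.9 RPKM with Casp1-/- added (1.55 ± 0.12), and these 2 mutant groups overlapped.

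Irf5 was the least abundant member in control intestines, at 2.25, 2.08 and 1.94 RPKM in the D387A set. Casp8 D387A Cflar-/- Mlkl-/- intestines had 5.13, 4.29 and 6.82 RPKM, and Irf5 rose by 1.37 ± 0.23 (adjusted p = 5.6e-05). Casp1-/- Fadd-/- intestines had only 2.61, 3.20 and 2.79 RPKM, a difference of 0.45 ± 0.23 (adjusted p = 0.20), whereas Casp1-/- Ifnar1-/- intestines had 5.02, 5.91 and 6.64 RPKM and a rise of 1.49 ± 0.23 (adjusted p = 5.3e-05). Casp1-/- embryos had 3.35, 2.77 and 5.74 RPKM, all above the controls, with a difference of 0.92 ± 0.23 (adjusted p = 0.0095), and of 0.55 (adjusted p = 0.055) without the third. Against the embryos with intact Casp1 their difference was -0.46 ± 0.22 (adjusted p = 0.094), and -0.83 (adjusted p = 0.0011) without the third. The Fadd-/- group thus had the highest Stat2, Irf9, Irf8 and Socs1 means of the set but an Irf5 mean below those of the other 3 Cflar-/- Mlkl-/- groups. Irf5 in the C362A set rose from 1.69, 2.10 and 1.93 RPKM to 14.2, 14.99 and 16.3 RPKM in Casp8 C362A Mlkl-/- intestines, 7.94-fold (2.99 ± 0.14). With Casp1-/- added it was at 3.97, 4.88 and 4.58 RPKM, and in Casp8 C362A Cflar-/- Mlkl-/- intestines at 7.53, 8.84 and 8.02 RPKM. The 4 groups of the C362A set did not overlap. Irf5 shares 411 of its 2905 annotated exon bases with Tnpo3 on the opposite strand, and whether reads were counted by strand is not settled by the sources used here. Tnpo3 differed by 0.00 ± 0.14 in Casp8 C362A Mlkl-/- and by 0.43 ± 0.07 in Casp8 D387A Cflar-/- Mlkl-/- intestines.

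**Figure D3:**
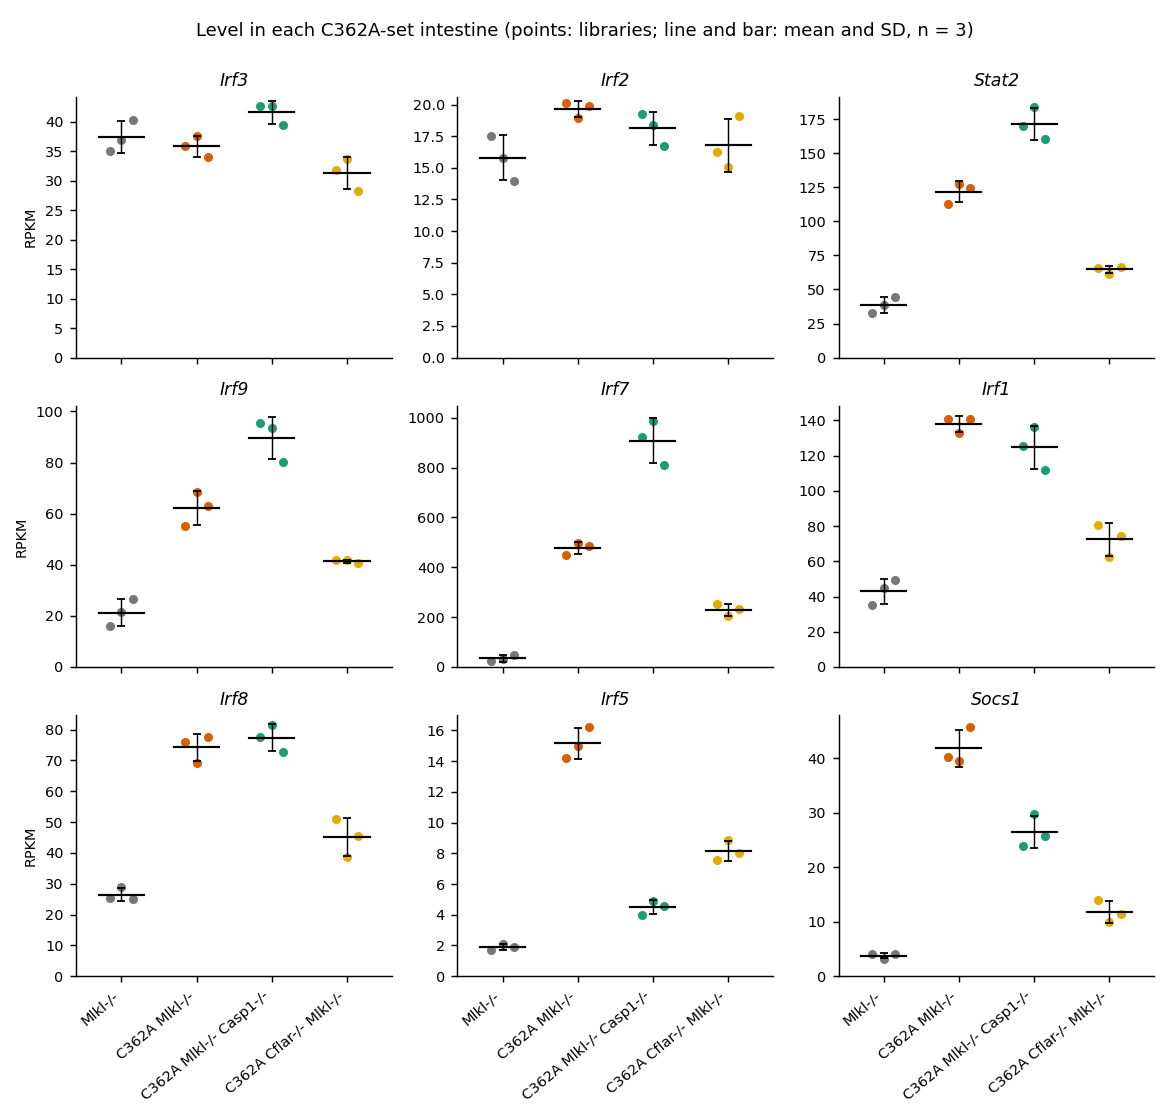
RPKM of each gene (vertical axes, linear from 0) in the 3 libraries (points) of each C362A-set genotype, with the mean as a line and the SD as a bar. Irf7 is highest with Casp1-/- (810 to 989 RPKM), while Irf5 and Socs1 are highest in Casp8 C362A Mlkl-/- with intact Casp1.

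Socs1, the brake on JAK kinases, rose in all 7 of the intestinal genotypes with a mutant Casp8 and no Mlkl. In D387A-set controls it was at 3.35, 3.66 and 5.41 RPKM, and in Casp8 D387A Cflar-/- Mlkl-/- intestines at 11.7, 11.5 and 15.1 RPKM (1.62 ± 0.31, adjusted p = 0.00020). Casp1-/- embryos had 6.74, 8.36 and 16.7 RPKM, all above the controls (1.35 ± 0.31, adjusted p = 0.0051), but without the third the difference was 0.87 (adjusted p = 0.027) and no longer called. The adjusted p was 0.051 in a fit of those 2 groups alone. Casp1-/- Ifnar1-/- intestines had 12.8, 21.3 and 22.7 RPKM (2.19 ± 0.31) and Casp1-/- Fadd-/- intestines 29.3, 30.1 and 25.2 RPKM (2.77 ± 0.31). Against the Casp1-/- embryos with intact Fadd, Socs1 rose by 1.41 ± 0.29 (adjusted p = 0.0026), and by 1.90 without the third. Socs1 in the C362A set went from 4.01, 3.24 and 4.07 RPKM to 40.2, 39.5 and 45.7 RPKM in Casp8 C362A Mlkl-/- intestines (3.47 ± 0.16, 11.1-fold), to 24.0, 29.8 and 25.6 RPKM with Casp1-/- added (2.81 ± 0.15) and to 13.9, 9.99 and 11.4 RPKM in Casp8 C362A Cflar-/- Mlkl-/- intestines (1.64 ± 0.15). The 4 groups did not overlap.

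Casp8 D387A alone left all 9 genes near the control level. The largest difference was 0.27 ± 0.53 for Irf7 (adjusted p = 0.99) and the smallest was -0.0042 ± 0.32 for Socs1 (adjusted p = 1.0). Irf1, Irf3 and Irf8 were slightly higher in each of the 3 Casp8 D387A embryos than in any control, with differences of 0.18, 0.15 and 0.18, where 15.6% of all genes had groups that did not overlap. The smallest adjusted p of the 9 was 0.97.

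With the loss of Casp1, differences ran in both directions among the 9 genes. For the C362A mutant, 1 member, Irf5, fell (-1.76 ± 0.13, adjusted p = 3.5e-07), where 5.72% of all genes fell. None of the 9 rose, where 5.60% of all genes rose. Irf7 was higher by 0.93 ± 0.23 (adjusted p = 0.0065), Irf9 by 0.52 ± 0.16 (adjusted p = 0.019) and Stat2 by 0.49 ± 0.14 (adjusted p = 0.013), all under the fold threshold, while Socs1 was lower by -0.66 ± 0.14 (adjusted p = 0.0023). Irf1 and Irf8 differed by -0.15 ± 0.15 and 0.06 ± 0.12 (adjusted p = 0.46 and 0.74). In Casp8 D387A Cflar-/- Mlkl-/- intestines no member was called for the loss of Casp1, where 13.4% of all genes were called in either direction. There the third Casp1-/- embryo turned the direction of Irf7 and Irf9. With all 3 embryos their differences were 0.65 ± 0.53 and 0.06 ± 0.19 (adjusted p = 0.33 and 0.82), and without the third -0.84 and -0.33 (adjusted p = 0.033 and 0.030). Irf8 was lower by -0.40 ± 0.14 with all embryos (adjusted p = 0.026) and by -0.69 without the third (adjusted p = 1.2e-06), and Irf1 by -0.18 ± 0.16 (adjusted p = 0.39) and -0.51 (adjusted p = 0.00029). Stat2 was higher by 0.66 ± 0.23 (adjusted p = 0.027) with all embryos and by 0.14 (adjusted p = 0.37) without the third. Socs1 differed by -0.27 ± 0.29 (adjusted p = 0.47) and by -0.76 (adjusted p = 0.016), and Irf3 and Irf2, at 0.26 and -0.15, moved little, to 0.23 and -0.16.

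The difference between the 2 effects of Casp1 loss was tested as an interaction over the 30 intestines, each mutant within its own set. Irf5 was the 1 member called, where 4.90% of all genes were higher in this contrast, with a D387A minus C362A difference of 1.33 ± 0.27 (adjusted p = 0.0017). The Irf5 difference is 0.96 (adjusted p = 0.0032), under the fold threshold, without the third embryo. Irf7 differed by -0.26 ± 0.64 (adjusted p = 0.82) with that embryo and by -1.74 (adjusted p = 0.0042) without it. With all embryos only Irf5 passed the adjusted p. Without the third, Irf8 (-0.72, adjusted p = 0.00050) and Irf9 (-0.82, adjusted p = 0.0072) passed it as well, under the fold threshold. The D387A embryos of this contrast also lacked Cflar and the C362A embryos did not, so the Casp8 allele and Cflar cannot be told apart here.

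**Figure D4:**
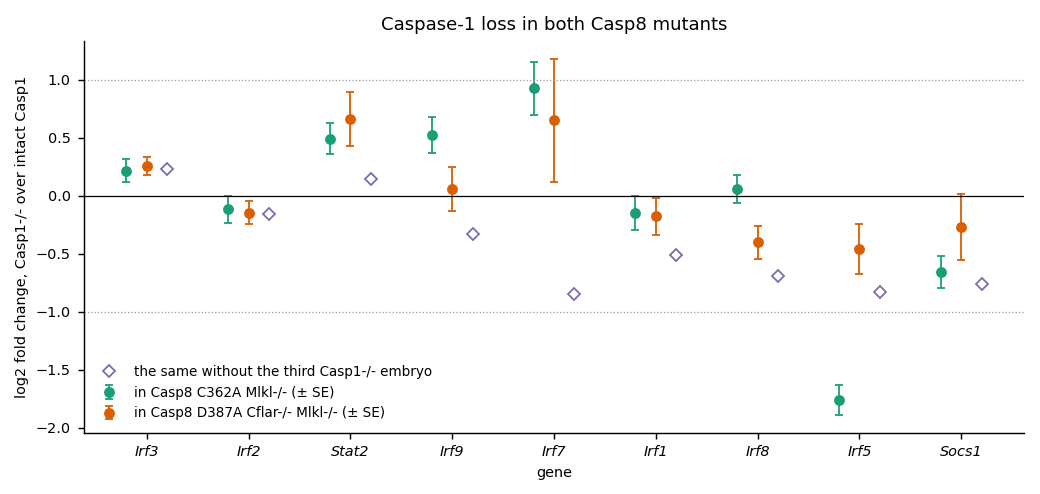
Log2 fold change of each gene on loss of Casp1 (vertical axis), in Casp8 C362A Mlkl-/- (green) and Casp8 D387A Cflar-/- Mlkl-/- intestines (orange) with bars of 1 SE, and the latter without the third Casp1-/- embryo (open diamonds). Dotted lines stand at the fold thresholds of 1 and -1. Irf5 in the C362A mutant, at -1.76, is the only point outside them, and the diamonds of Irf7 and Irf9 lie below 0.

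Loss of Cflar in Casp8 C362A Mlkl-/- intestines went with lower levels of most members. Socs1 fell by 1.83 on the log2 scale (SE 0.14, adjusted p = 1.9e-05) and Irf7 by 1.06 (SE 0.23, adjusted p = 0.0054), 2 of 9 members where 4.62% of all genes fell. Irf1 (-0.93), Stat2 (-0.91), Irf5 (-0.90), Irf8 (-0.72) and Irf9 (-0.59) were lower with adjusted p of 0.017 or less but under the fold threshold, and Irf2 and Irf3 had differences of -0.23 and -0.20. Irf7 was just short of the fold threshold, at -0.98, when the second Casp8 C362A Cflar-/- Mlkl-/- embryo was left out, and Irf1 passed it, at -1.01, without the first.

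Casp8 D387A Cflar-/- Mlkl-/- and Casp8 C362A Cflar-/- Mlkl-/- intestines, each against its own controls, did not differ in a called way for any member, where 0.0764% of all genes were called (15, with 4043 of 19643 at an unadjusted p below 0.05). The median D387A minus C362A difference was -0.38 for the 9 members and -0.03 for all genes, and with all libraries no member passed the adjusted p. Irf2 was higher in this contrast. With a library left out, the values of Irf1 (-0.21 to 0.05) and Socs1 (-0.16 to 0.22) changed sign. The D387A minus C362A difference was -1.41 ± 0.65 for Irf7 (adjusted p = 0.22), -0.88 ± 0.29 for Stat2 (adjusted p = 0.10) and -0.72 ± 0.28 for Irf5 (adjusted p = 0.15), and that of Socs1 was -0.02 ± 0.37 (adjusted p = 0.98). In the Stat2 contrast the value was -1.003 (adjusted p = 0.044) without the third C362A-set control.

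In MEFs none of the 9 genes was called, and 0.0711% of all genes were (11, with 1001 of 15465 at an unadjusted p below 0.05). With same-numbered MEF libraries paired as a block, 19 genes were called and still none of the 9. Irf7, Irf9 and Stat2 were lower in all 3 pairs, with blocked differences of -0.39, -0.39 and -0.26 (adjusted p = 0.58, 0.11 and 0.20). Irf1 was higher in all 3 pairs, at 9.65, 15.3 and 14.0 against 9.54, 11.5 and 9.96 RPKM, with a blocked difference of 0.31 (adjusted p = 0.30). The other members differed by -0.21 (Irf5) to 0.25 (Socs1) without the block. Irf7 was low in both MEF genotypes, at 1.11, 2.15 and 3.03 RPKM in Mlkl-/- and 1.03, 1.93 and 1.69 RPKM in Casp8 D387A Cflar-/- Mlkl-/- MEFs, with a difference of -0.42 ± 0.37 (adjusted p = 0.90). Irf8 was counted with only 11 to 32 reads per library, and Socs1 with 34 to 73 reads, so small differences in them were not detectable at this depth. Irf3 and Stat2 were the most abundant members in Mlkl-/- MEFs, at 16.0 ± 2.09 and 14.6 ± 1.17 RPKM (SD, n = 3). The largest difference of a gene above 5 RPKM was -0.38 ± 0.15 for Irf9 (adjusted p = 0.70). Tested as an interaction over 24 libraries, the effect of the genotype was larger in intestine than in MEFs for Irf5, by 1.61 ± 0.34 (adjusted p = 0.00067), and for Socs1, by 1.40 ± 0.45 (adjusted p = 0.018), 2 of 9 members where 7.30% of all genes were higher in this contrast. For Irf7 the contrast was 1.75 ± 0.82 (adjusted p = 0.10). The Socs1 contrast was not called in limma-voom (adjusted p = 0.062) or without the second Casp8 D387A Cflar-/- Mlkl-/- MEF library (adjusted p = 0.050).

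**Figure D5:**
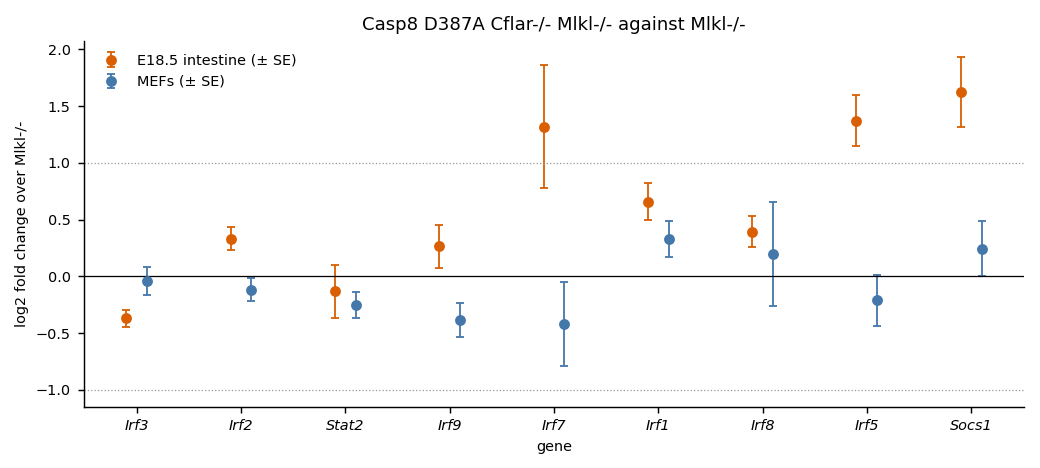
Log2 fold change (vertical axis) of each gene in Casp8 D387A Cflar-/- Mlkl-/- against Mlkl-/- samples, in E18.5 intestine (orange) and MEFs (blue), with bars of 1 SE and dotted lines at 1 and -1. The intestinal points of Irf7, Irf5 and Socs1 lie above 1 (1.32 to 1.62), and all MEF points lie between -0.42 and 0.33.

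Upstream of these factors, reads of the 6 interferon genes examined were few. None of 6 ligand genes (Ifnb1, Ifng, Ifnl2, Ifnl3, Ifne, Ifnk) passed the filter in the D387A set or the MEFs. Other type I interferon genes, such as those of interferon alpha, were not examined. Ifnb1, the gene of interferon beta, had 0 reads in every control intestine, 12, 26 and 11 reads in the Casp1-/- Fadd-/- intestines and 4, 2 and 8 in the Casp1-/- Ifnar1-/- intestines, and at most 2 in the other D387A-set libraries. In the C362A set it had 4, 8 and 5 reads in Casp8 C362A Mlkl-/- and 37, 58 and 44 with Casp1-/- added. Ifng had 29, 30 and 35 reads in Casp8 C362A Mlkl-/- intestines and 1 read in each of the Casp1-/- ones. Within the C362A set, Casp8 C362A Mlkl-/- Casp1-/- intestines had the highest Irf7, Irf9 and Stat2 means and the most Ifnb1 reads. Casp8 C362A Mlkl-/- intestines had the highest Irf5 and Socs1 means and the most Ifng reads. Irf1 and Irf8 overlapped between these groups. With Casp1-/- and with intact Casp1, their means were 125 and 138 RPKM (Irf1) and 77.3 and 74.2 RPKM (Irf8). A link between ligand reads and member levels was not tested. Casp8 C362A Cflar-/- Mlkl-/- intestines, with Irf7 6.64-fold above controls, had 0 Ifnb1 reads in all 3 libraries. Ifnl2 and Ifnl3, a closely related pair of type III interferon genes between which reads may be split, had 0 reads in C362A-set controls. With Casp8 C362A Mlkl-/- Casp1-/- they had 20 to 22 and 19 to 24 reads per library, with Casp8 C362A Mlkl-/- 1 to 4 each, and with Casp8 C362A Cflar-/- Mlkl-/- 2 to 3 and 0 to 6. In the Casp1-/- Fadd-/- intestines they had 6 to 16 and 8 to 18 reads, and in the Casp1-/- Ifnar1-/- ones 1 to 7 and 0 to 2. In the D387A set the Ifnar1-/- intestines, which had the highest Irf7 mean, held 14 Ifnb1 reads in all against 49 in the Fadd-/- intestines.

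Of the receptors and kinases, few passed the fold threshold. In Casp8 D387A Cflar-/- Mlkl-/- intestines 2 of 6 interferon receptor genes fell, Ifnlr1 (-1.90 ± 0.12) and Il10rb (-1.58 ± 0.10), the 2 chains of the type III interferon receptor, where 12.8% of all genes fell. Ifngr1, a chain of the interferon gamma receptor, was at 108.3 ± 16.5 RPKM there against 58.9 ± 0.73 in controls (SD, n = 3), with no overlap and a difference of 0.88 ± 0.15 under the fold threshold. In Casp8 C362A Cflar-/- Mlkl-/- intestines the same 2 genes fell, by 1.82 and 1.43 on the log2 scale, where 11.2% of all genes fell. In Casp8 C362A Mlkl-/- intestines their differences were -0.62 and -0.80, and none of the 6 was called, where 10.4% of all genes rose and 7.55% fell. None of the 4 JAK kinase genes was called in any of these 3 comparisons, though in Casp8 D387A Cflar-/- Mlkl-/- intestines all 4 passed the adjusted p, 3 higher and 1 lower, as did 59.4% of all genes. Tyk2, a kinase of the type I receptor, was lower by -0.85 ± 0.09 in Casp8 D387A Cflar-/- Mlkl-/- intestines and Jak2 higher by 0.29 ± 0.09.

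Of the other STAT genes, Stat4, a gene of lymphoid cells, rose in Casp8 D387A Cflar-/- Mlkl-/- intestines (1.43 ± 0.32, adjusted p = 0.00091), where it was at 0.48 ± 0.12 RPKM (SD, n = 3). Of 18 other SOCS genes and brakes, 2 rose in Casp8 D387A Cflar-/- Mlkl-/- intestines, a share near the 9.40% of all genes. They were Usp18, which blocks the type I receptor (2.20), and Socs3, which restrains STAT3 signaling (1.44). With Casp1 lost as well, Socs3 fell by 1.18 on the log2 scale in the D387A mutant and by 1.46 in the C362A mutant.

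Downstream, 17 of 22 ISGF3 target genes rose in Casp8 D387A Cflar-/- Mlkl-/- intestines, with a median log2 difference of 1.70, where 9.40% of all genes rose. Oas3, which senses double-stranded RNA, rose by 3.93 ± 0.77, and Ifit1 differed by 0.48 (adjusted p = 0.30). All 22 rose in Casp1-/- Ifnar1-/- and in Casp1-/- Fadd-/- intestines (medians 3.61 and 4.51), where 6.76% and 2.81% of all genes rose. In Casp1-/- intestines with intact Ifnar1 and Fadd, 20 rose with all embryos (median 2.65) and 13 without the third (median 1.17), where 2.16% and 1.32% of all genes rose. All 22 rose in Casp8 C362A Mlkl-/- intestines (median 4.71) and with Casp1-/- added (median 5.62), where 10.4% and 6.79% of all genes rose. Of 22 interferon gamma and IRF1 targets, 18 rose in Casp8 D387A Cflar-/- Mlkl-/- intestines (median 2.47), led by Cxcl9, a T cell chemokine induced by interferon gamma, at 7.97. With the loss of Casp1 in the C362A mutant, 8 of 22 ISGF3 targets rose and none fell, while 5 of 22 interferon gamma and IRF1 targets fell and none rose, where 5.60% of all genes rose and 5.72% fell. In the D387A mutant the counts with all embryos were also 8 and 5, where 8.88% rose and 4.51% fell, but the third Casp1-/- embryo decided them. Without it 1 ISGF3 target rose and 4 fell, with the median turning from 0.60 to -0.32, and 13 interferon gamma and IRF1 targets fell, with the median going from -0.49 to -1.22, where 9.41% of all genes rose and 6.36% fell. Cxcl9 differed by -5.79 in the C362A mutant and by -4.69 in the D387A mutant, or -5.52 there without the third Casp1-/- embryo. In MEFs no ISGF3 target was called, and 1 interferon gamma and IRF1 target, Cxcl10, rose (2.41) among the 0.0711% of all genes that rose. These lists were set with earlier results of these data known.

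Leukocyte markers moved with some of the members. The 5 pan-leukocyte genes summed to 60.3 to 68.4 CPM in C362A-set controls, 240.6 to 267.8 CPM in Casp8 C362A Mlkl-/-, 68.6 to 75.3 CPM with Casp1-/- added and 149.2 to 191.1 CPM in Casp8 C362A Cflar-/- Mlkl-/- intestines, the same order of groups as Irf5. Neutrophil markers summed to 9.60 to 25.9, 314.7 to 402.2, 15.9 to 20.4 and 167.3 to 263.6 CPM in those groups, and macrophage and monocyte markers to 411.1 to 473.4, 635.0 to 695.7, 612.5 to 668.4 and 459.3 to 531.0 CPM. In the D387A set the pan-leukocyte sum was 72.0 to 80.6 CPM in controls and 131.0 to 204.5 CPM in Casp8 D387A Cflar-/- Mlkl-/-. It was 83.3 to 106.6 CPM with Casp1-/-, 100.9 to 115.7 CPM with Casp1-/- Ifnar1-/- and 64.5 to 72.1 CPM with Casp1-/- Fadd-/-. Irf5 did not follow this order. Its mean was 5.86 RPKM with Casp1-/- Ifnar1-/- against 5.41 RPKM in Casp8 D387A Cflar-/- Mlkl-/-, and with Casp1-/- Fadd-/- it lay above the controls (2.87 against 2.09 RPKM). In the Fadd-/- intestines, where Irf7, Stat2, Irf9, Irf1 and Socs1 rose, none of the 5 pan-leukocyte, 10 macrophage and 7 tested neutrophil markers was called, where 2.81% of all genes rose and 0.975% fell. Macrophage and monocyte markers summed there to 541.1 to 564.6 CPM against 453.1 to 487.4 CPM in controls, and neutrophil markers to 4.48 to 17.5 against 3.93 to 17.6 CPM. In Casp8 D387A Cflar-/- Mlkl-/- intestines neutrophil markers summed to 37.9 to 134.9 CPM and macrophage and monocyte markers to 363.9 to 489.1 CPM. With Casp1-/- added, macrophage and monocyte markers summed to 432.6, 421.9 and 718 CPM, the last in the third embryo. The part of the leukocyte markers in the levels of Irf5, Irf8 and the others was not tested. In bulk tissue more cells of a type and more RNA per cell cannot be told apart. The dendritic cell list is dominated by Bst2, itself interferon-induced, and its other 9 genes summed to 20.6 to 23.6 CPM in C362A-set controls, 71.5 to 84.7 CPM in Casp8 C362A Mlkl-/-, 29.1 to 32.3 CPM with Casp1-/- added and 47.9 to 54.3 CPM in Casp8 C362A Cflar-/- Mlkl-/- intestines. T and NK cell markers summed to 6.88 to 8.10 CPM in C362A-set controls, 14.1 to 15.6 CPM in Casp8 C362A Mlkl-/-, 7.72 to 9.11 CPM with Casp1-/- added and 13.2 to 15.3 CPM in Casp8 C362A Cflar-/- Mlkl-/- intestines, and their part in the levels of Irf5 and Socs1 was not tested. B cell markers were at 14.6 CPM or less in every intestine.

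For correlations over the 30 intestines, log2 CPM was taken relative to the mean of the Mlkl-/- controls of the same set. On this scale Irf7 tracked Irf1, Irf9, Socs1 and Stat2 (Pearson r 0.952, 0.951, 0.924 and 0.924), and Irf5 less closely (0.675). Irf3 had r of -0.040 with Irf7. The genes most like each member over these libraries were, for Irf7, Oas1g, Oas1a and Apol9a (r 0.994, 0.994 and 0.990), and for Stat2, Trim34a, Trafd1 and Parp10 (0.991, 0.988 and 0.984). For Irf9 they were Fbxw17, Trafd1 and Psme1 (0.972 each), for Irf1 Rnf19b, Myd88 and H2-D1 (0.978, 0.974 and 0.969), for Irf8 Ctss, Psme1 and Myd88 (0.949, 0.946 and 0.945), and for Socs1 Igtp and 4933412E12Rik (0.966 each). Irf5 was instead closest to Spi1, Vav1 and Rap2b (0.981, 0.977 and 0.976), of which Spi1 and Vav1 are genes of blood cells. For Irf2 and Irf3 the closest genes had r of at most 0.859 (Gna13) and 0.908 (Dxo). These coefficients run across libraries that share genotypes and describe the pattern only.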

How the data were processed

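RNA-seq was carried out on E18.5 intestines and MEFs, with 1 deposited table per library. Per the labels and the methods of the study, reads were aligned with GSNAP to GRCm38 (mm10) and uniquely mapped reads were kept, and the counting program is not given in the sources used here. The deposited values used are raw read counts over the exons of each gene, and the tables also hold exon widths and the authors' RPKM values. The RPKM columns of the authors were used only to check the count columns. The labels and the methods name different library kits and sequencers, so whether reads were counted by strand is not settled. Reads on genes were 75.6% to 88.6% of the total the authors scaled by.

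Groups were taken from the sample labels, and each set (D387A, C362A, MEF) was fitted on its own. Counts were filtered with filterByExpr (minimum count 10, minimum total 15), scaled by TMM and tested with the quasi-likelihood test of edgeR 4.0.16 in R 4.3.3 with a prior count of 0.125, and p-values were adjusted by Benjamini-Hochberg over all genes of the fit. The SE is the log2 fold change divided by the root of F. The fits tested 18360 genes for the D387A set, 19408 for the C362A set and 15465 for MEFs, and 19643 and 18862 in the 2 interaction fits. RPKM, CPM and the correlations came from the same counts. All 9 members were tested in every comparison and could be named in each. Of each pathway list, counts are given with up to 3 members of the largest and 1 of the smallest difference in Casp8 D387A Cflar-/- Mlkl-/- intestines. Some results of these lists are not reported here. The members and lists were chosen with earlier results of these data known. The steps were tested on simulated counts.

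The same contrasts were repeated with voom in limma 3.58.1, with DESeq2 1.42.0, and in edgeR with RLE size factors, a prior count of 2, a mean of at least 50 reads, no filter, a fit of the 2 groups compared alone, pooled controls of both sets, leave-one-out, and a block for the replicate number. The counts of interferon targets without the third Casp1-/- embryo were added after the data were seen. Same-numbered libraries did not deviate together in the intestines (correlations of deviations -0.28 to 0.23 in the D387A set and -0.45 to 0.29 in the C362A set), and did in the 3 MEF pairs (0.17 to 0.31, each over 0.1), so for MEFs the fit with the pairs as a block is given beside the one without it. The numbers come from the sample labels. Replicates of a group differed beyond sampling noise (chi-square per gene 5.01 to 70.8). The labels name separate samples, and the p-values measure the spread between these samples.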

Additional observations from a re-analysis of the deposited data

Results flagged for a closer look

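For 3 results an interaction test called a difference between the effects of one contrast in 2 settings. The difference of Irf5 on loss of Casp1 was less negative in Casp8 D387A Cflar-/- Mlkl-/- than in Casp8 C362A Mlkl-/- intestines, by 1.33 on the log2 scale (edgeR adjusted p = 0.0017), and by 0.96 without the third Casp1-/- embryo of the D387A set. The difference of Irf5 between Casp8 D387A Cflar-/- Mlkl-/- and Mlkl-/- samples was greater in intestine than in MEFs, by 1.61 (edgeR adjusted p = 0.00067). The same contrast of Socs1 was 1.40 (edgeR adjusted p = 0.018).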

How the results depend on the processing

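Over the alternatives that kept all libraries, 1243 of 1259 fold changes of the 9 genes stayed on their side of the thresholds, 8 calls were lost and 8 gained, and 0 called values changed sign. Of 1080 fold changes with 1 library left out, 1050 kept their side, 16 calls were lost and 14 gained. In 58 cases a value called in neither fit changed sign, with a size of at most 0.84.

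The number of members called moved by more than 1.5 times in few cases. For Casp8 D387A Cflar-/- Mlkl-/- Casp1-/- intestines it went from 2 to 1 in limma-voom and to 0 in a fit of the 2 groups alone. For the loss of Fadd it went from 2 to 5 in limma-voom and to 1 with the 2 groups alone, for the loss of Ifnar1 from 1 to 0 with the 2 groups alone, and for intestine minus MEFs from 2 to 1 in limma-voom. With the Mlkl-/- controls of both sets pooled, Irf8 was called in Casp1-/- Fadd-/- intestines (1.06) and Stat2 was not in Casp1-/- Ifnar1-/- intestines (0.92). With no filter Irf7 was called in intestine minus MEFs (1.75, adjusted p = 0.032), and its loss of Fadd value was called with no filter (adjusted p = 0.0022) and with a mean of at least 50 reads (adjusted p = 0.048). The cause was not tested.

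With 1 library left out, members called ran from 2 to 3 in Casp8 D387A Cflar-/- Mlkl-/-, 0 to 3 with Casp1-/-, 4 to 6 with Casp1-/- Ifnar1-/- and 5 to 5 with Casp1-/- Fadd-/-; from 0 to 3 for the loss of Ifnar1 and 2 to 5 for the loss of Fadd; from 3 to 4 in Casp8 C362A Cflar-/- Mlkl-/- and 1 to 3 for the loss of Cflar; and from 0 to 1 and 1 to 2 for D387A minus C362A and intestine minus MEFs. Irf5 was called in Casp1-/- intestines without the first (1.02) or the second embryo (1.12), and Socs1 and Stat2 for the loss of Ifnar1 without the third Casp1-/- embryo (1.33 and 1.04).

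The replicate block pairs MEF libraries of the same number. It left 0 members called there and moved the genes called from 11 to 19. In the intestines the numbers did not pair the samples, and the block called Irf7 for the loss of Fadd (3 members in place of 2) and changed no other member count.

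Of all genes, 1 was called in Casp8 D387A and 3 in DESeq2, 14 with no filter, 7 with the 2 groups alone and 3 with pooled controls. The D387A minus C362A difference had 15 calls against 7 in limma-voom, 137 in DESeq2 and 123 with no filter, and MEFs 11 against 36 in DESeq2 and 45 with no filter. Calls with a mean of at least 50 reads, for which fewer genes were tested, were 524 against 796 in the Casp1-/- group, 1454 against 2278 with Ifnar1-/-, 1581 against 2459 for the loss of Casp1 and 573 against 975 for the loss of Ifnar1. With the 2 groups alone they were 456 in the Casp1-/- group, 411 for the loss of Ifnar1 and 322 for the loss of Fadd (against 631). With 1 library left out, the genes called ran from 0 to 645 for D387A minus C362A, 2 to 14 in MEFs, 582 to 1740 for the loss of Ifnar1, 476 to 907 for the loss of Fadd and 596 to 990 in the Casp1-/- group. In MEFs, Irf8 and Socs1 were too shallow for small differences.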
